A study of Mus musculus with 4 samples.

Results

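Described here are the genes of LIF, cytokine receptors and the JAK-STAT pathway in naive mouse embryonic stem cells (nESC) and in epiblast-like stem cells (EpiLSC), a state that resembles the epiblast shortly after implantation. Members were chosen by gene symbol, with earlier results of these data known. They are the STAT, JAK, SOCS, PIAS and PIM families, every interleukin receptor symbol, and Tyk2, Cish, Lif, Lifr, Il6st, Osmr, Bcl3, Ptpn6, Ptpn11, Ptpn2, Cntfr, Kit and Kitl. The annotation holds 78 such symbols, of which 66 were among the 20296 genes of the authors' deposited table and 59 of those had an adjusted p.

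RNA was measured in 4 samples. The 2 nESC samples, 1 of the line R1 and 1 of the line E14TG2a (E14), were grown in medium with 2 inhibitors and LIF (2i/LIF), the condition that holds cells in the naive state. The 2 EpiLSC samples, again 1 of R1 and 1 of E14, were collected on day 3 in N2B27 medium with activin A at 20 ng/ml and bFGF at 12 ng/ml; the labels name no LIF in it. No genotype other than that of the lines is named, and both states come from the same lines. The medium, the named LIF and inhibitors included, differs between the groups together with the state, and their effects cannot be told apart. Each state holds 1 culture of each line, so the spread behind each p-value includes the difference between R1 and E14, and values of single samples were not analysed here. In bulk RNA, fewer cells with a transcript and less transcript per cell cannot be told apart.

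LIF signals through a pair of receptor chains, LIFR and gp130 (encoded by Il6st). Janus kinases bound to the chains phosphorylate them and then STAT3, which enters the nucleus and activates genes that maintain naive mouse stem cells, among them Tfcp2l1 and Klf4. SOCS proteins, which STATs induce, PIAS SUMO ligases and tyrosine phosphatases restrain the pathway. Most other interleukin receptors use the same kinases with various STATs, many of them in blood cells, while receptors of the IL-1 and IL-17 families signal without JAKs.

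The direction of the contrast was read from marker genes, because the header does not state it: positive log2 fold changes were taken as higher in EpiLSC. All 7 naive markers listed had negative values in the authors' deposited table, down to -10.24 for Prdm14, and all 5 formative markers found there had positive ones, up to 8.40 for Fgf5. Mean normalized counts added up to 27888553 over the table, and the size factors read from its low means ranged from 0.735 to 1.28. Levels per state are implied by the deposited mean and fold change and carry no SD. A level per kb is the implied level divided by the gene's exon length and is the scale on which levels of different genes are compared; the mean normalized count tells how many reads a gene rests on.

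STATs bind palindromes of the form TTCNNNGAA, and the pathway's own inhibitors are known STAT targets, so the regulatory stretches of members were searched for it. Of the 66 members 53 matched RefSeq's promoter table (build GRCm38.p6, 250 bases before to 50 after each start), with 68 starts. Members without a match there were not searched, among them the inhibitor genes Socs2, Socs5, Socs6, Socs7, Pias2, Pias4 and Ptpn2. TTCNNNGAA, which reads the same on both strands, stood in 5 of the 68 (7.35%), against 8.30% of all 32851 promoters of the table. The stricter form TTCCNGGAA, contained in the first, stood in 2 of the 68 (2.94%), against 1.15% of all. The 5 genes were Cish, Socs3, Il31ra, Il12rb2 and Il1r2, of which Il31ra was not tested and the other 4 were not called. No match was found at the 18 starts of the 11 called members, which says only that these letters are not in those windows. The stretches of the SOCS members Cish and Socs3 are shown because they hold the motif, in capitals; in Cish it occurs at 2 places. Cish lies on the plus strand at chr9:107296654-107296683 and Socs3 on the minus strand at chr11:117969501-117969530.
Cish: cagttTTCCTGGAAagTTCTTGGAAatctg
Socs3: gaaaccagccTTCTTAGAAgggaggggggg

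The 100 bases directly upstream of the starts of Lifr, Il6st, Il6ra, Stat3 and Pim2 are shown next, because the main results concern these genes. Capitals mark CpG dinucleotides, the sites of DNA methylation in mammals. RefSeq lists 2 starts for Lifr. The upstream one had 43 CpG in its 250 upstream bases, more than 99.3% of all promoters, and the downstream one had 3. Il6st had 26, Pim2 22, Il6ra 18 and Stat3 13, against a median of 6 over all promoters of the table. Methylation was not analysed here, and the CpG counts are a description of the sequence. All are GRCm38.p6: Lifr chr15:7129472-7129571 and chr15:7140442-7140541, plus strand; Il6st chr13:112463970-112464069, plus; Il6ra chr3:89913197-89913296, minus; Stat3 chr11:100939541-100939640, minus; Pim2 chrX:7878206-7878305, plus.
Lifr, upstream start: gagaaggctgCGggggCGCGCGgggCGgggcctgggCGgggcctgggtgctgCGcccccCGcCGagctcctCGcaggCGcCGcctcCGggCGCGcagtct
Lifr, downstream start: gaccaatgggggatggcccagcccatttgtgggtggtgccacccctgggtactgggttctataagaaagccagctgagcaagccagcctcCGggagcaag
Il6st: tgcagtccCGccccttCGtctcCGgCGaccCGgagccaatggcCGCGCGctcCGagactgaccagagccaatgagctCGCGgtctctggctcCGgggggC
Il6ra: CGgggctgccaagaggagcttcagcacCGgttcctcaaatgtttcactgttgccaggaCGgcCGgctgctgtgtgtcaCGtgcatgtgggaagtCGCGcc
Stat3: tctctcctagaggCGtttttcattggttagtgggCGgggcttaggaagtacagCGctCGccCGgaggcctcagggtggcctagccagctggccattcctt
Pim2: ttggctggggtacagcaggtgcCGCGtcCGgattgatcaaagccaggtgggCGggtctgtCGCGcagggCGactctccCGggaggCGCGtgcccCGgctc

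The receptor chains and the STAT of the LIF pathway were lower in EpiLSC. All 4 kinase genes had values below 0: Jak1 and Jak2 lay near 0, Tyk2 had -1.38 (SE 0.81) and was not called, and Jak3 fell. Whether the kinase genes differed from the receptor and STAT genes was not tested. Lifr, Il6st, Il6ra, Stat3, Jak3, Kit, Bcl3 and Il2rg fell, and Pim2, Cntfr and Il20ra rose. Of the 59 tested members 8 fell (13.6%) and 3 rose (5.08%) at an adjusted p under 0.05 (DESeq2 Wald test of the authors' deposited table, Benjamini-Hochberg). Among all 16361 tested genes 6.23% fell and 7.67% rose, 13.9% in either direction. The share of members that fell was thus above the background share and the share that rose below it. The difference itself was not tested, and the members were chosen with earlier results of these data known. Counts of called genes in single families and marker lists below stand against the same background shares, and those differences were not tested either. The members' median log2 fold change was -0.27, against 0.02 for all tested genes, and 34 of the 59 values were below 0. Of the 14 members with a mean of 1000 or more 4 fell and 1 rose, while of all 4949 such genes 198 fell and 119 rose. In the test against a 2-fold change, which 3.07% of all tested genes passed as fallen and 3.84% as risen, Il6ra and Kit fell and Pim2 rose. Wald adjusted p values given across the alternatives include the deposited one. The others were recomputed here from the deposited log2 fold changes, SEs and p-values, not by DESeq2. At an adjusted p under 0.05 (DESeq2 Wald test) 48 of the 59 tested members were not called. Of these, 12 had a 95% interval that lay between a 4-fold fall and a 4-fold rise. Such an interval was found for 5856 of all 16361 tested genes.

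**Figure D1:**
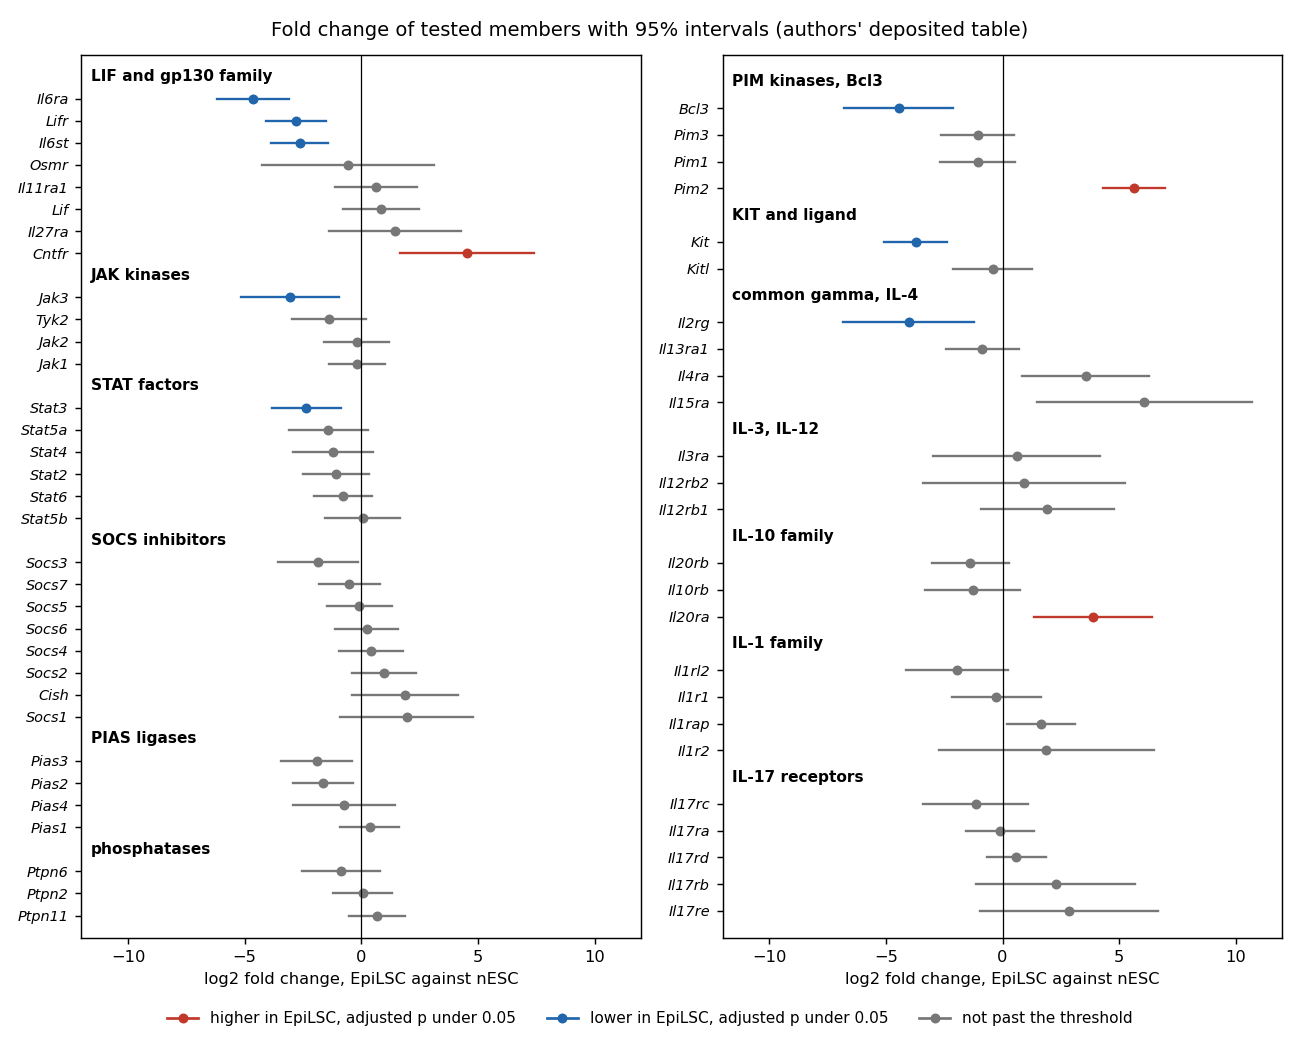
Log2 fold change of tested members, EpiLSC against nESC, by role; points are the deposited estimates and lines their 95% intervals from the standard errors. The intervals of Lifr, Il6st and Il6ra lie below 0 and those of Pim2 and Cntfr above it, while those of Jak1 and Jak2 span 0.

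Among the gp130 family, both chains of the LIF receptor fell. Lifr (ENSMUSG00000054263.10) had an implied level of 6918 normalized counts in nESC and 984 in EpiLSC. The authors' deposited table gave it a log2 fold change of -2.81 (SE 0.66, DESeq2 adjusted p 0.000332), a 7.03-fold fall. For Il6st (ENSMUSG00000021756.11), the shared signal-transducing chain, the implied levels were 6883 and 1099, a 6.26-fold fall (log2 -2.65, SE 0.62, DESeq2 adjusted p 0.000394 in the authors' deposited table). Per kb of exon, Lifr and Il6st stood at 642 and 620 in nESC and at 91.3 and 99.0 in EpiLSC, so the 2 chains were at nearly the same implied level within each state. Across the alternatives the Wald adjusted p of Lifr ran from 0.000295 to 0.0759 and that of Il6st from 0.000352 to 0.102. The highest values came from the test against a 2-fold change, which neither gene passed.

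Il6ra (ENSMUSG00000027947.10), which encodes the chain that binds IL-6 and presents it to gp130, fell further, by 25.2-fold. Its implied level was 693 normalized counts in nESC and 27.6 in EpiLSC, and the authors' deposited table gave -4.65 (SE 0.79, DESeq2 adjusted p 1.68e-07). An antisense gene, Gm42809, with a mean of 4.59, overlaps its exons by 242 bases. Cntfr (ENSMUSG00000028444.16), the chain that binds ciliary neurotrophic factor and joins LIFR and gp130, rose from an implied 2.08 to 47.9 normalized counts. Its deposited value was 4.53 (SE 1.47, DESeq2 adjusted p 0.0185 in the authors' deposited table), and the size of that rise rests on few reads in nESC (95% interval 1.65 to 7.40). The Wald adjusted p of Cntfr ran from 0.0185 to 0.175 across the alternatives. It was highest in the test against a 2-fold change, which Cntfr did not pass. Cntfr and Il11ra1 are direct neighbours among the coding genes of chromosome 4, and Il11ra1, the chain for interleukin 11, had 0.62 (SE 0.89) in the authors' deposited table.

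Lif, the ligand, did not pass, at implied levels of 46.6 normalized counts in nESC and 83.6 in EpiLSC (log2 0.84, SE 0.83, DESeq2 adjusted p 0.729 in the authors' deposited table). These are levels of the cells' own transcript, not of the LIF added to the nESC medium. Osmr, the oncostatin M receptor chain and the direct coding neighbour of Lifr on chromosome 15, was near the limit of detection, with a mean of 4.52 from 18 reads over the 4 libraries. The log2 fold change of Osmr in the authors' deposited table was -0.56 (SE 1.88), so a change of several-fold in either direction lies within its 95% interval of -4.24 to 3.12. Il27ra, the chain for interleukin 27, had 1.45 (SE 1.44) in the authors' deposited table. Il31ra and Il11ra2 had 2 and 3 reads over the 4 libraries and were not tested. Il11ra2 is a near copy of Il11ra1, so reads of the 2 genes may not be separable.

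**Figure D2:**
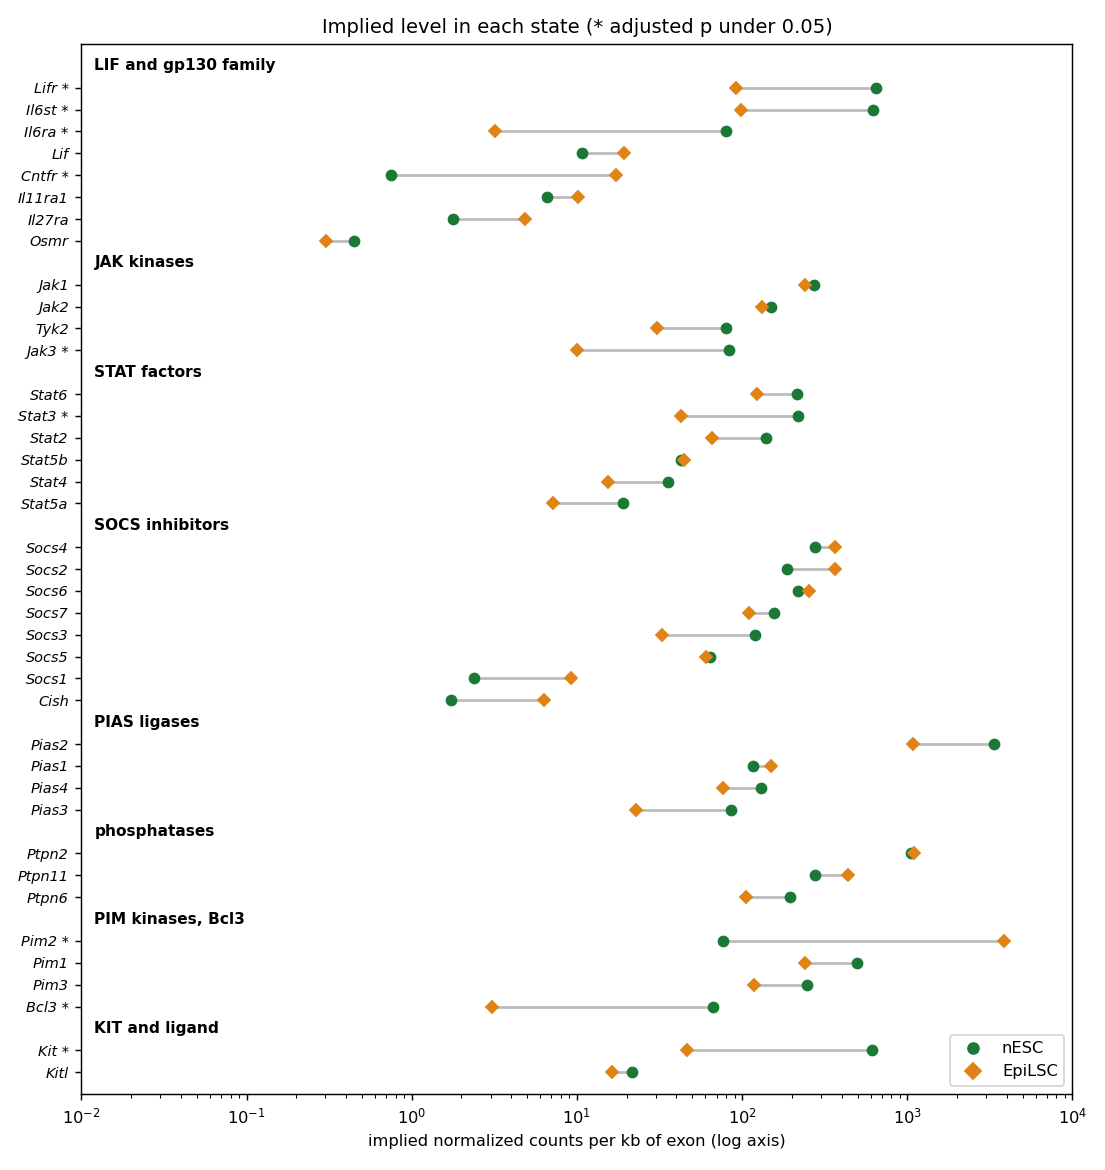
Implied normalized counts per kb of exon in nESC (circles) and EpiLSC (diamonds) for tested members of 8 role groups, on a log axis; stars mark an adjusted p under 0.05. Lifr and Il6st lie close together in each state, and Pim2 moves from 77.1 to 3839 per kb.

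Of the 4 Janus kinases 1 fell. Jak3 (ENSMUSG00000031805.16), the kinase that pairs with the common gamma chain of interleukin receptors, fell 8.33-fold, from an implied 444 to 53.3 normalized counts. The authors' deposited table gave Jak3 -3.06 (SE 1.07, DESeq2 adjusted p 0.0329), and its SE was larger than that of 90.8% of the 500 genes nearest to it in mean. Its exons share 404 bases with Insl3 on the same strand, a gene listed at a mean of 1.97. Across the alternatives the Wald adjusted p of Jak3 reached from 0.0326 to 0.432, and a test against a 2-fold change ended the call. Jak1 and Jak2, which are among the kinases that act with gp130, were not called. In the authors' deposited table Jak1 had -0.17 (SE 0.61) and Jak2 -0.19 (SE 0.71), with 95% intervals of -1.37 to 1.03 and -1.58 to 1.20 that lie within a 4-fold change. Tyk2 had -1.38 (SE 0.81, DESeq2 adjusted p 0.35) in the authors' deposited table. Per kb of exon Jak1 made up 46.5% of the summed JAK level in nESC and 58.4% in EpiLSC, and Jak3 14.2% and 2.41%.

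Il2rg (ENSMUSG00000031304.17), the common gamma chain with which JAK3 associates, also fell, from an implied 40.5 to 2.48 normalized counts. Its deposited log2 fold change was -4.03 (SE 1.43, DESeq2 adjusted p 0.0373 in the authors' deposited table), and its size rests on few reads in EpiLSC. The exons of Il2rg share 728 bases with Gm20489 on the same strand, listed at a mean of 0.487. The Wald adjusted p of Il2rg lay between 0.037 and 0.31 across the alternatives, and the call ended in the test against a 2-fold change.

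Among the STAT genes 1 passed, Stat3 (ENSMUSG00000004040.15), which fell 5.12-fold. Its implied level was 2068 normalized counts in nESC and 404 in EpiLSC, with -2.36 (SE 0.76, DESeq2 adjusted p 0.0169) in the authors' deposited table. The call ended at a threshold of 0.01 and in the test against a 2-fold change. There the Wald adjusted p of 0.542 was the highest of its alternatives (lowest 0.0167). Stat5a (-1.42, SE 0.87), Stat4 (-1.19, SE 0.88), Stat2 (-1.07, SE 0.72) and Stat6 (-0.79, SE 0.63) also had values below 0 in the authors' deposited table, none past the threshold, and whether Stat3 differed from them was not tested. Stat5b stood at 0.06 (SE 0.82) in the authors' deposited table.

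Stat5b, Stat5a and Stat3 follow each other on chromosome 11 with no coding gene between them. The exons of Stat3 and Stat5a overlap by 72 bases on opposite strands, and the strand setting of the counting is not given in the sources used here, so reads from that stretch cannot be assigned with certainty. In the order per kb, Stat3 and Stat6, the STAT of interleukin 4 signalling, were highest in nESC, at 217 and 214, and Stat6 and Stat2 in EpiLSC, at 124 and 66.1.

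**Figure D3:**
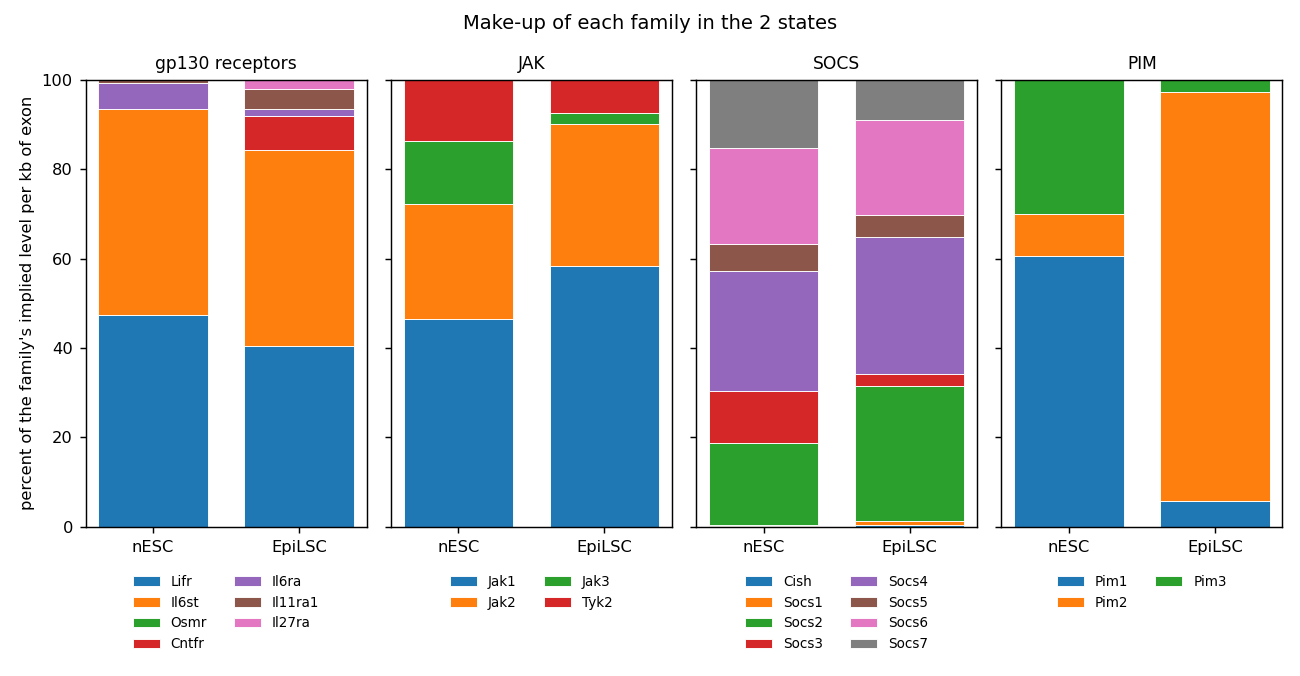
Share of each gene in the summed implied level per kb of exon of its family, in percent, for 4 families in nESC and EpiLSC; bars carry no error because levels per sample were not analysed. Pim1 is the largest part of the PIM bar in nESC (60.6%) and Pim2 in EpiLSC (91.5%).

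No SOCS gene passed: 0 of 8 rose or fell (DESeq2 Wald test), where 13.9% of all tested genes did. Only 1, Socs3, had an unadjusted p under 0.05, as did 3558 of all 16361 tested genes. Neither difference was tested. Socs3, the inhibitor that STAT3 induces and that binds gp130, stood at an implied 344 normalized counts in nESC and 94.0 in EpiLSC. Its value in the authors' deposited table was -1.87 (SE 0.88, DESeq2 adjusted p 0.169). Cish (1.88, SE 1.16) and Socs1 (1.95, SE 1.46) had positive values in the authors' deposited table at means of 25.9 and 16.8. Socs2 (0.96, SE 0.70), Socs4 (0.42, SE 0.70), Socs5 (-0.08, SE 0.72), Socs6 (0.23, SE 0.70) and Socs7 (-0.52, SE 0.67) lay nearer to 0 in the authors' deposited table. Cish and Socs1, known as inhibitors that cytokines induce, together held 0.40% of the summed SOCS level per kb in nESC and 1.29% in EpiLSC, and Socs4, Socs2 and Socs6 were highest in EpiLSC, at 367, 364 and 255 per kb.

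The other inhibitors gave 0 calls among 7 genes, against 13.9% of all tested genes, a difference that was not tested. Pias2 had a mean of 7922 normalized counts, with 11968 implied for nESC and 3876 for EpiLSC. In the authors' deposited table Pias2 had -1.63 (SE 0.66, DESeq2 adjusted p 0.0825) and Pias3, known as an inhibitor of STAT3, -1.91 (SE 0.78, DESeq2 adjusted p 0.0898); both had an unadjusted p under 0.05. Pias4 (-0.76, SE 1.12) and Pias1 (0.36, SE 0.64) missed the threshold in the authors' deposited table. The phosphatase genes Ptpn11 (0.66, SE 0.61), which encodes SHP2, Ptpn2 (0.05, SE 0.64), which encodes a phosphatase of JAKs and STATs, and Ptpn6 (-0.88, SE 0.85) missed the threshold in the authors' deposited table as well.

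The PIM kinases, serine/threonine kinases whose genes are known targets of STATs, had values of both signs. Pim2 (ENSMUSG00000031155.13) rose 49.8-fold, from an implied 215 to 10729 normalized counts. The authors' deposited table gave it 5.64 (SE 0.68, DESeq2 adjusted p 3.48e-14), the smallest p of all members. In the test against a 2-fold change Pim2 still passed, at a Wald adjusted p of 2.31e-09, the highest of its alternatives (lowest 2.28e-14). Pim1 (-1.06, SE 0.82) and Pim3 (-1.07, SE 0.80) had negative values in the authors' deposited table and did not pass. The summed PIM level per kb was 821 in nESC, of which Pim1 made up 60.6% and Pim2 9.39%, with Pim3 the remainder. In EpiLSC the sum was 4195, with 91.5% of it from Pim2.

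Bcl3 (ENSMUSG00000053175.15), an IκB family regulator of transcription and a known LIF target in stem cells, fell 21.8-fold, from an implied 166 to 7.59 normalized counts. Its value was -4.45 (SE 1.19, DESeq2 adjusted p 0.00257) in the authors' deposited table, with an SE larger than that of 91.6% of the 500 genes nearest in mean. The test against a 2-fold change left Bcl3 just outside the threshold, at a Wald adjusted p of 0.0555, the highest of its alternatives (lowest 0.00254).

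Kit (ENSMUSG00000005672.11), a receptor tyrosine kinase best known from blood, germ and pigment cells, fell 13.2-fold. The implied level of Kit was 5455 normalized counts in nESC and 412 in EpiLSC, with -3.73 (SE 0.70, DESeq2 adjusted p 3.12e-06) in the authors' deposited table. Kit also passed the test against a 2-fold change, at a Wald adjusted p of 0.00255, the highest of its alternatives (lowest 2.24e-06). In nESC its implied level per kb, 612, was close to those of Lifr and Il6st. The ligand gene Kitl had -0.41 (SE 0.87) in the authors' deposited table, at implied levels of 128 and 95.9 normalized counts. Of 4 germ cell markers 1 rose, Ddx4 (3.03, SE 0.75), and 1 fell, Dazl (-2.46, SE 0.77), in the authors' deposited table.

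**Figure D4:**
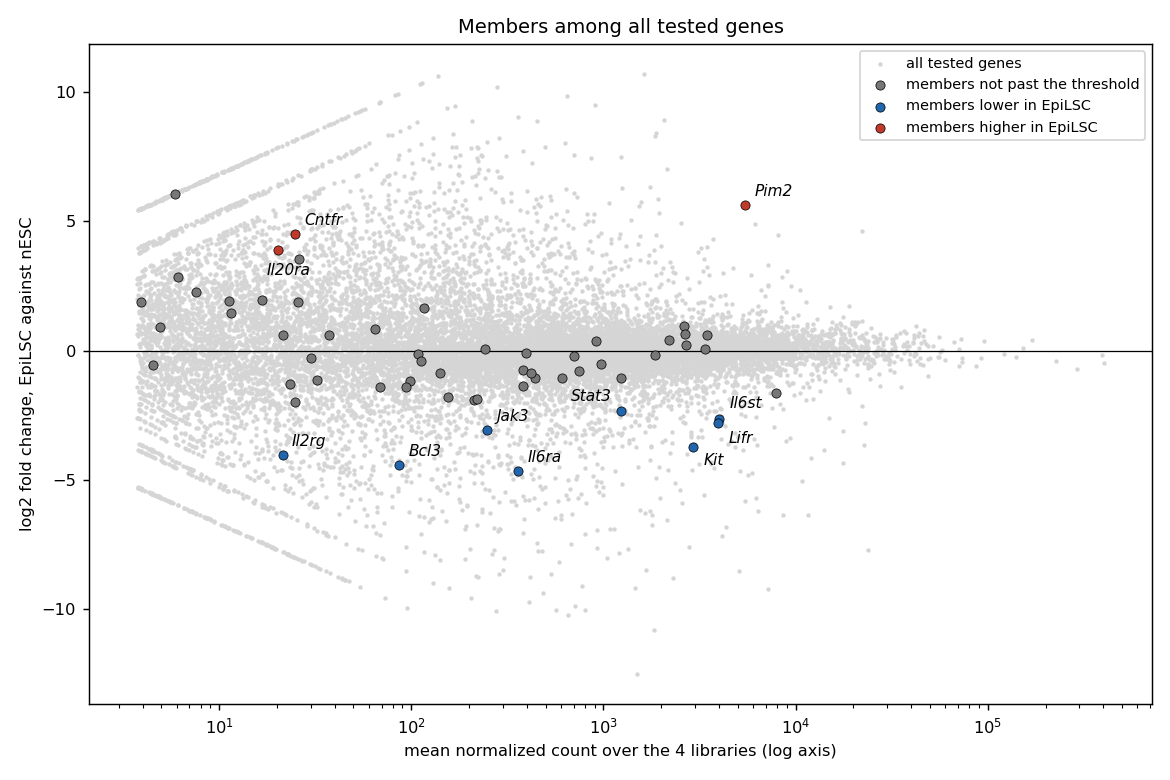
Mean normalized count over the 4 libraries (log axis) against the log2 fold change for all 16361 tested genes in grey and the 59 members in colour. Pim2, Kit, Lifr and Il6st lie far from 0 at high means, from 2934 to 5472, while Cntfr, Il20ra and Il2rg lie among genes with low means, from 20.2 to 25.0.

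Interleukin receptors outside the gp130 family were mostly at low levels. Of the 78 symbols 12 had no row in the authors' deposited table, all of them interleukin receptors or relatives, such as Il7r, Il10ra, Il21r and Il23r. Of 24 listed ones outside the gp130 family, 19 were tested. Il17rd, taken for its reads, was the 1 tested gene of these with a mean above 1000. It encodes Sef, an antagonist of FGF signalling that is grouped with the interleukin 17 receptors by sequence, and its implied levels were 2772 normalized counts in nESC and 4173 in EpiLSC (log2 0.59, SE 0.65, DESeq2 adjusted p 0.786 in the authors' deposited table).

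Il20ra (ENSMUSG00000020007.3), a chain of the receptor for interleukin 20, rose from an implied 2.55 to 37.9 normalized counts. Its deposited value was 3.89 (SE 1.29, DESeq2 adjusted p 0.0223 in the authors' deposited table), and the size of the rise rests on few reads in nESC. Across the alternatives its Wald adjusted p lay between 0.0223 and 0.244, and the test against a 2-fold change ended the call. Il20rb, the chain it pairs with, had a mean of 68.4 and a log2 fold change of -1.39 (SE 0.84) in the authors' deposited table. Each other receptor group is represented by the gene with the most reads, not the highest level per kb. Il13ra1, of the common gamma and IL-4 group, had -0.87 (SE 0.80) and Il1rap, of the IL-1 group, 1.64 (SE 0.74), neither past the threshold in the authors' deposited table. Il3ra, from the 3 listed IL-3 and IL-12 family chains, had 0.60 (SE 1.82) in the authors' deposited table.

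Il4ra (3.56, SE 1.38) and Il15ra (6.08, SE 2.35) had large positive values with DESeq2 adjusted p of 0.0666 and 0.0651 in the authors' deposited table. The implied nESC level of Il4ra was 4.07 normalized counts. That of Il15ra, 0.172, was among the lowest of any tested gene, less than a single read, so the size of its fold change depends on how the fit treats a group without reads and is no measure of the change. The untested receptors outside the gp130 family, Il2ra, Il2rb, Il9r, Il22ra1 and Il1rapl1, rested on 4, 5, 8, 3 and 3 reads over the 4 libraries. Of 10 blood markers, among which Ptprc had a mean of 8.32 and Cd3e 4.49 and Spi1 5.34 normalized counts, 7 were tested. Of these 2 rose, Tal1 (4.28, SE 1.32, with few reads in nESC) and Runx1 (3.28, SE 0.98), and 0 fell in the authors' deposited table. The summed implied level of the 10 was 91.0 in nESC and 276 in EpiLSC, and their part in the receptor values was not tested. Fibroblast and feeder cell markers, 9 genes, summed to 101 and 477, with 3 rises and 0 falls among 6 tested, and their part was not tested either. Markers of other cell types moved as well. Neural markers, 5 genes, summed to 1385 in nESC and 9160 in EpiLSC, with 2 rises and 0 falls among 5 tested. Most of both sums was Nes, at an implied 929 and 8486 normalized counts, which rose, as did Neurod1 (4.10, SE 0.93). Pax6 (2.93, SE 1.46, with few reads in nESC), Sox1 (-1.98, SE 1.29) and Tubb3 (0.29, SE 1.11) were not called in the authors' deposited table. Endothelial markers, of which 3 of 5 were in the table, summed to 374 and 83.9, and both tested ones fell. Trophectoderm markers, 6 genes, summed to 1106 and 2104, with 1 rise and 2 falls among 4 tested, and primitive endoderm markers, 6 genes, to 92.7 and 190.0, with 1 rise and 0 falls among 4. The part of these cell types in the members' values was not tested.

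Other genes of cytokine signalling that the symbol rule leaves out were taken from 4 lists with 76 genes, of which 64 were in the table and 57 tested. Of these 7 rose (12.3%) and 6 fell (10.5%), against 7.67% and 6.23% of all tested genes, with a median log2 fold change of 0.26 against 0.02. The counts for single lists below stand against the same background shares, and none of the differences was tested. All 4 lists were made with earlier results of these data known. The fallen genes include Tfcp2l1 and Klf4, naive markers that served to read the direction of the contrast. Among the ligands 0 of 11 rose and 2 fell: Osm, oncostatin M, which acts through gp130 and a partner chain, and Il34, a ligand of the CSF1 receptor. Osm went from an implied 259 normalized counts in nESC to 0.51 in EpiLSC, with -8.99 (SE 1.61, DESeq2 adjusted p 9.42e-07) in the authors' deposited table, and the size of this fall rests on few reads in EpiLSC. Il34 had -3.94 (SE 1.29, DESeq2 adjusted p 0.0211) in the authors' deposited table.

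Among the other receptor genes 3 of 12 rose and 0 fell. Among them Ghr, the growth hormone receptor, rose by 4.64 (SE 0.73, DESeq2 adjusted p 1.62e-08) in the authors' deposited table. Of 21 adaptors and regulators 2 rose and 0 fell: Irs1, an adaptor of insulin and interleukin 4 receptors, by 3.72 (SE 0.68), and Pdlim2, which encodes a ubiquitin ligase for STATs, by 6.19 (SE 1.95) in the authors' deposited table. The size of the rise of Pdlim2, from an implied 0.486 normalized counts, rests on few reads in nESC.

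Among 13 tested STAT3 targets 4 fell and 2 rose. Tfcp2l1 (-7.71, SE 0.64) and Klf4 (-6.29, SE 0.68), both also naive markers, had the smallest p, and the early response gene Fos (3.17, SE 0.88) and Cebpb (2.91, SE 0.82) rose in the authors' deposited table. The list was made with results of these samples known and so is not independent evidence of its direction. Klf4 and Tfcp2l1 fell 78.0-fold and 209-fold, next to 5.12-fold for Stat3. As naive markers these 2 served to read the direction of the contrast, so their sign is no separate result. The other fallen targets, Klf5 and Gbx2, fell 7.21-fold and 6.64-fold, and 7 of the 13 were not called.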

How the data were processed

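The 1 file was the authors' comparison of 2 nESC with 2 EpiLSC libraries of ribosome-depleted, strand-specific RNA, and held no values per sample. The submitters' processing notes name TopHat2, HTSeq, DESeq2 1.8.2 and build mm9; the sources used here give neither annotation nor strand setting. The mean normalized count is the authors' signal, counts over size factors averaged across libraries. The log2 fold change, its SE and the Wald score are the authors' deposited values, per the file headers, as are the p-value and the adjusted p-value. Both p columns were recomputed here, with a largest gap of 4.4e-15 for the p-value and 2.3e-15 for the adjusted p-value. The 3935 genes without an adjusted p, with means up to 3.74, were not counted as tested.

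Members and lists were chosen with earlier results of these data known. Every called member, every gp130, JAK, STAT, SOCS, PIAS, phosphatase, PIM, Bcl3 and KIT member and the member with the highest mean of each other receptor group were named, and of each further list up to 2 genes per direction with the smallest p; Il4ra, Il15ra, untested or overlapping genes and the single cell type markers were named after their values were seen. Symbols and exon lengths came from GENCODE M21 (20167 of 20296 IDs named, matched without version). With mean m and log2 fold change L, the nESC level is 2m/(1 + 2^L) and EpiLSC the rest of 2m, at equal weights. Implied levels below 3 are said to rest on few reads. Of 2368 means below 1.5, 100.0% were whole-read sums of 4 steps, which gave the reads over 4 libraries. Depth per sample is unknown. Precision is that of the SE (median 0.68 at means of 1000 or more). Intervals are 95% normal. Python 3.11.15 and scipy 1.17.1 were used. The code for p-values and their adjustment was run on simulated fold changes with normal noise of the deposited SEs. That run checks the arithmetic and could not show whether the authors' calls are reliable. A planned comparison of protein sequences was not made, and a few genes within these rules are not reported here.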

Additional observations from a re-analysis of the deposited data

How the results depend on the processing

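The counts were recomputed at an adjusted p of 0.01, against a 2-fold change, without the filter on low means, with means of 100 or more only, and after recentring on the median of genes with a mean of 1000 or more (0.0039 on the log2 scale). Members that rose numbered 3, and 1 at 0.01, 1 against a 2-fold change and 1 at means of 100 or more; those that fell numbered 8, and 5 at 0.01 and 2 against a 2-fold change. Of the further pathway genes 7 rose, 3 against a 2-fold change and 3 at means of 100 or more, and 6 fell, 3 against a 2-fold change and 4 at 0.01. Among all tested genes 628 rose and 502 fell against a 2-fold change, and 636 and 615 at means of 100 or more. No filter and recentring kept every count within 1.5 times. Single calls were followed for 69 genes: the 59 tested members, of which 11 were called, and further pathway genes, all called. Of the called ones, 12 lost their call against a 2-fold change and 7 at 0.01. At means of 100 or more, 40 of the 69 have a value, and none of the called ones among them lost its call. These losses follow from the stricter threshold and test. The alternatives leave the fold changes as deposited or shift them all alike, so they could not show whether a direction is stable. No paired analysis was possible because the table has no values per sample, and for the same reason leaving out a library was not run. Depth limits the 25 tested members with a mean below 100, of which 0 had a 95% interval within a 4-fold change.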
